A study of Homo sapiens with 16 samples.

Results

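The replication-dependent histone cluster genes were followed through all 10 RNA libraries of a study of XIST, the long non-coding RNA that silences one X chromosome in female mammals. Members were the genes whose symbol starts with HIST1H, HIST2H, HIST3H or HIST4H and is listed once in both expression tables. Of 73 such symbols in either table, 67 were members, among 21031 genes present in both tables, and 6 were left out because they were duplicated or listed in 1 table (HIST2H2AA3, HIST2H2AA4, HIST2H3A, HIST2H3C, HIST2H4A and HIST2H4B). The members comprise 6 linker histone H1 genes, 16 H2A, 20 H2B, 12 H3 and 13 H4 genes. On the hg18 build 56 lie in the HIST1 cluster on chromosome 6, between 25834270 and 27969648, 7 in HIST2 and 3 in HIST3 on chromosome 1, and HIST4H4 on chromosome 12. RefSeq lists 3 of them as pseudogenes (HIST1H2APS1, HIST2H2BA and HIST2H2BC).

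All libraries came from HT1080, a human fibrosarcoma cell line, in subclones that carry the Tet repressor, so that doxycycline (DOX) switches on an XIST cDNA placed at a single FRT site on 1p, 8p or 12q. The HiSeq table holds 8p XIST with No DOX (1 library), 8p XIST after 5 days of DOX (2 libraries), and 1 library each of 1p XIST, 1p with an empty vector and 12q XIST, all 3 with DOX. The NextSeq table holds 1 library each of 1p XIST and 12q XIST with No DOX and with DOX. The series describes the second 8p DOX library as a replicate of the clone and the methods speak of separate 8p clones, so what the replicates share is not known, and p-values measure only the spread between these libraries, which may be technical. By the paper, the 12q clone came from a different Tet repressor subclone of HT1080 than the 1p and 8p clones. Clone and integration site cannot be told apart, and for 12q neither can the subclone.

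Replication-dependent histone genes are mostly short and without introns, and their mRNAs accumulate in S phase, when new DNA is packed into nucleosomes. These mRNAs normally end in a conserved stem-loop bound by SLBP in place of a poly(A) tail, so poly(A) selection recovers them poorly, although some of the genes also give polyadenylated transcripts. H2A, H2B, H3 and H4 form the nucleosome core, and H1 binds the linker DNA between nucleosomes.

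The levels are FPKM (fragments per kilobase of transcript scaled to the mapped fragments of the library). The read depth is unknown, and a gene listed at 0 is not shown to be silent, since the replacement histone gene H3F3A, which is active in most cells, was listed at between 0.00275 and 0.0051 FPKM in the NextSeq libraries. XIST was at 3.38 FPKM in 8p No DOX, 99.0 and 89.7 in the 8p DOX libraries, 23.8 in 1p XIST DOX, 0.0705 in 1p vector DOX and 61.9 in 12q DOX, and in the NextSeq table it was at 4.17 and 21.95 in 1p and at 3.75 and 67.6 in 12q, without and with DOX. Of the mesenchymal markers VIM was at 1644 to 2978 FPKM over the 10 libraries, while THY1 was at or near 0 in each. Epithelial markers summed to between 0.321 and 6.78 FPKM per library and haematopoietic markers to at most 0.750.

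Promoters are shown for 4 members because they cover H1, H2B and H4 genes, differ in the motifs they hold, and belong to genes with large (HIST1H2BM, HIST1H4H) and smaller (HIST1H2BK, HIST1H1C) differences after DOX in 8p. Each runs from 250 bases before to 50 bases after the gene start in RefSeq (GRCh38.p14), 5′ to 3′ on the strand of the gene. Capitals mark the letters TATAAA (the TATA box core), CCAAT (the CCAAT box) and ATTTGCAT (the octamer, which POU2F1 binds), on either strand, where overlapping matches run together. HIST1H2BM lies at chr6:27814772-27815071 (plus strand), HIST1H4H at chr6:26285485-26285784, HIST1H2BK at chr6:27146809-27147108 and HIST1H1C at chr6:26056421-26056720 (all minus strand).
HIST1H2BM: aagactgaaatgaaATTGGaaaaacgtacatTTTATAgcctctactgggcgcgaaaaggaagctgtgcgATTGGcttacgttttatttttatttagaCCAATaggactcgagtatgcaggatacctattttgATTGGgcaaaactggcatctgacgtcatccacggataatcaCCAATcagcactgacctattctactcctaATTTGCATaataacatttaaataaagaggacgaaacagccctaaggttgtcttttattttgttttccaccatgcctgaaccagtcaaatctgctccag
HIST1H2BK: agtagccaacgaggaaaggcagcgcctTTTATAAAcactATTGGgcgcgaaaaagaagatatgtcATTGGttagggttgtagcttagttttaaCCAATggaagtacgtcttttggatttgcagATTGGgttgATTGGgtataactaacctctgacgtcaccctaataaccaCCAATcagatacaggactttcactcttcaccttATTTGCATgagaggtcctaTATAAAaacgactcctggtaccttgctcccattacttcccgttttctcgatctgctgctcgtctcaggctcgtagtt
HIST1H1C: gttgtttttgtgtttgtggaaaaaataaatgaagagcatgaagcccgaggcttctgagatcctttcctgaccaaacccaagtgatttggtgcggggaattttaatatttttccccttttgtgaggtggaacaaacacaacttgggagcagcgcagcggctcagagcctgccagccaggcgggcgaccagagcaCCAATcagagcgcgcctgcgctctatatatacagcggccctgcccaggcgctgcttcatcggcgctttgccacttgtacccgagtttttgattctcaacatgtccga
HIST1H4H: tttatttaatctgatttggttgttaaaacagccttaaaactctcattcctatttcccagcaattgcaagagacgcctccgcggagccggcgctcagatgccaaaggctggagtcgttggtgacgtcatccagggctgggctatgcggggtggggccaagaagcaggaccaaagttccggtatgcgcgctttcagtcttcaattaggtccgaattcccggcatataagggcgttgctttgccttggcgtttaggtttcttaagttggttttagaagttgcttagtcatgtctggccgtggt
The HIST1H2BM and HIST1H2BK windows hold the letters of the 3 motifs, the HIST1H1C window holds 1 CCAAT box, and the HIST1H4H window holds none of these letter strings. In HIST1H2BM the only TATAAA match is on the opposite strand, 219 bases before the start. Its neighbour HIST1H2AJ, which runs the other way, starts 245 bp away, so this match may belong to HIST1H2AJ. HIST1H2BK has a TATAAA match on its own strand 27 bases before the start.

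A promoter window was matched for 59 of the 67 members. The CCAAT box was found in 86.4% of them, against 34.6% of all 35116 promoters of the same length, the TATA box core in 66.1% against 11.5%, and the octamer in 44.1% against 1.77%. The octamer and the CCAAT box differed in share between histone types. The octamer was in 78.6% of the H2A and 77.8% of the H2B windows, in 10% of the H3 windows and in 0 of the H1 and H4 windows. CCAAT was in every H1, H2A, H2B and H3 window examined but in 27.3% of the H4 windows. The TATA box core was in 50% (H1) to 71.4% (H2A) of the windows of each type. The octamer share was 45.2% among windows of members at 1 FPKM or more on average in HiSeq and 42.9% among the others. These shares pool types with and without the octamer. Within H2A it was 66.7% of 9 windows at 1 FPKM or more and 100% of 5 others. Within H2B it was 66.7% of 12 and 100% of 6, and no test was made. By RefSeq starts 11 pairs of members lie head to head, 194 to 248 bp apart, of which 10 join an H2A with an H2B gene. Each window reaches back further than these distances, so the windows of both partners cover the same bases between their starts. A motif there, on either strand, was counted for both partners and may belong to either. For these pairs the shares by type and by level do not come from independent windows.

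More histone cluster genes were listed at 1 FPKM or more in HiSeq than in NextSeq. An average of at least 1 FPKM was reached by 35 members in the HiSeq and by 13 in the NextSeq table, and by 12 in both. HIST2H2BA, a pseudogene, reached it in NextSeq alone (2.17 to 3.73 FPKM, against 0.125 to 0.794 in HiSeq). A further 31 members were under 1 FPKM on average in both tables, and 14 were listed at 0 in all 10 libraries. Summed over the 67 members the level was between 336 and 742 FPKM per HiSeq library and between 206 and 231 FPKM per NextSeq library. The tables were normalised separately and no test was made across them.

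**Figure D1:**
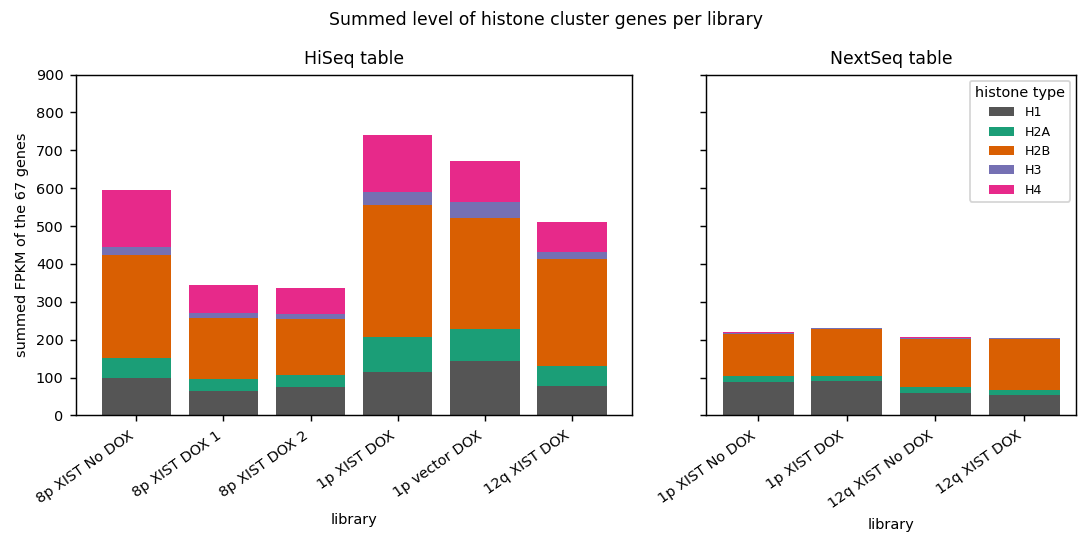
Summed FPKM of the 67 histone cluster genes in each library (bars from 0), coloured by histone type, with the HiSeq libraries on the left and the NextSeq libraries on the right. The 8p DOX libraries have the lowest HiSeq sums (345 and 336), and the H4 segment is almost missing in NextSeq (1.22 to 2.15 FPKM).

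The H4 genes differed most plainly between the tables. Of the 13, 6 averaged at least 1 FPKM in HiSeq and 0 did so in NextSeq. HIST1H4E averaged 32.5 FPKM in HiSeq and 0.167 in NextSeq, and HIST1H4A averaged 21.0 and was listed at 0 in all 4 NextSeq libraries. The linker histone gene HIST1H1E went from an average of 26.6 to 0.353 FPKM, whereas HIST1H1C, another linker gene, averaged 69.6 and 72.5 FPKM. In all, 15 members averaged at least 5 FPKM in HiSeq and under 1 in NextSeq, and 4 (HIST1H1C, HIST1H2AC, HIST1H2BD and HIST1H2BK) averaged at least 5 in both. Of the 6 members whose gene model spans over 1 kb 5 averaged at least 1 FPKM in NextSeq, against 8 of the 61 shorter ones.

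RNAs that lack a poly(A) tail moved with the table in the same direction. The 13 listed ones of a set of 16 summed to between 472 and 864 FPKM per HiSeq library and between 10.7 and 12.6 per NextSeq library. RMRP, the RNA of RNase MRP, was at 321 to 658 FPKM in HiSeq and 0.519 to 1.55 in NextSeq. Library kit, read length and instrument differed together between the tables and cannot be told apart, and their part in the histone levels was not tested.

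**Figure D2:**
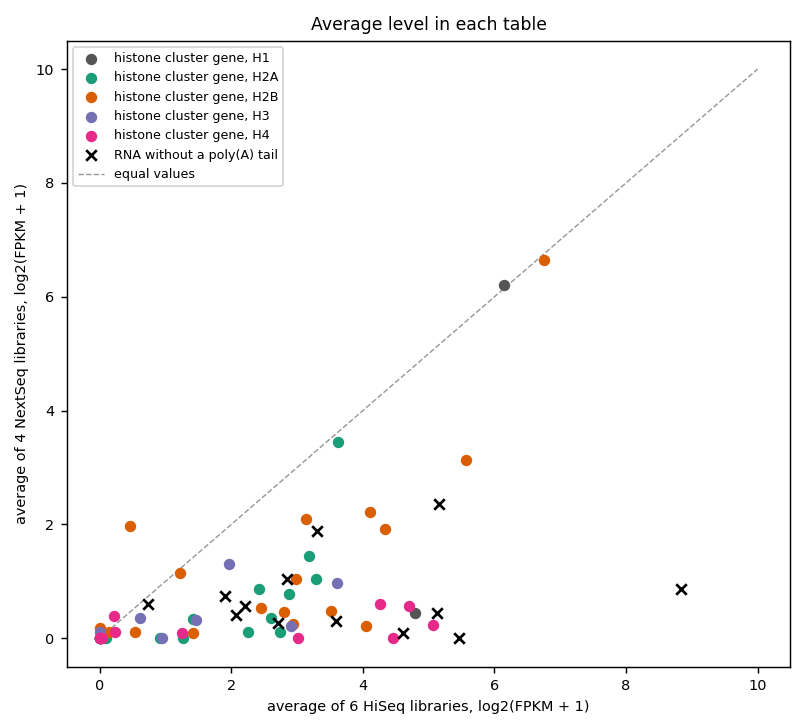
Average level of each of the 67 histone cluster genes (dots, coloured by type) and of 13 RNAs without a poly(A) tail (crosses) in the HiSeq (x axis) and NextSeq (y axis) libraries, in log2(FPKM + 1), with the line of equal values. Most dots lie below the line, and HIST1H1C and HIST1H2BK lie close to it at the top.

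The 4 members at 5 FPKM or more in both tables had these levels. HIST1H2BK (chromosome 6, 27214051 to 27222616, hg18), a core histone H2B gene whose model also spans HIST1H4I, was at 126 FPKM in 8p No DOX, 78.4 and 73.8 in the 8p DOX libraries, 111 in 1p XIST DOX, 98.6 in 1p vector DOX and 154 in 12q DOX, and at 88.4, 99.7, 99.4 and 107 in NextSeq (1p No DOX, 1p DOX, 12q No DOX, 12q DOX, as in the next sentences). HIST1H1C (26163947 to 26164678) was at 77.7, 55.6, 60.7, 69.1, 97.4 and 57.1 FPKM in the HiSeq libraries in that order and at 87.1, 90.6, 57.5 and 54.5 in NextSeq. The 8p DOX libraries were the lowest of the HiSeq libraries for HIST1H2BK, whereas for HIST1H1C 12q DOX lay between them. HIST1H2BD (26266328 to 26279555) was at 46.3, 30.5, 26.98, 68.7, 69.1 and 37.3 FPKM in HiSeq and 7.36, 9.22, 5.48 and 8.94 in NextSeq. HIST1H2AC (26232352 to 26232897) was at 12.7, 9.86, 8.13, 12.9, 11.05 and 13.4 FPKM in HiSeq and 9.27, 9.34, 12.3 and 8.67 in NextSeq. The 8p DOX libraries were again the lowest for both of these H2B and H2A genes.

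Other members reached at least 1 FPKM on average in 1 or both tables. Among H2A genes, HIST1H2AG (3.35 to 16.0 FPKM over the HiSeq libraries), HIST3H2A (6.35 to 10.5), HIST1H2AE (2.57 to 12.0), HIST1H2AJ (1.61 to 12.5), HIST1H2AH (1.85 to 9.88), HIST1H2AI (1.18 to 9.09), HIST2H2AC (1.70 to 7.59), HIST1H2AK (0.525 to 4.04) and HIST2H2AB (0.549 to 2.46) reached this level. Among H2B genes the ranges were 6.93 to 45.6 for HIST1H2BC, 8.39 to 26.7 for HIST1H2BJ, 4.81 to 27.7 for HIST1H2BM, 6.56 to 15.7 for HIST1H2BN, 2.21 to 10.1 for HIST1H2BL, 1.26 to 11.7 for HIST3H2BB, 1.59 to 7.45 for HIST1H2BG and 0.394 to 3.72 for HIST1H2BB. HIST2H2BE ranged from 6.32 to 9.58, the pseudogene HIST2H2BC from 5.05 to 9.52 and HIST2H2BF, whose model overlaps FCGR1A, from 0.706 to 2.13. The H3 genes were HIST1H3C (5.01 to 21.4), HIST1H3B (2.20 to 13.4), HIST1H3H (1.53 to 4.41) and HIST1H3A (0.705 to 3.08). The H4 genes, which encode the same protein, were HIST1H4E (22.6 to 42.1), HIST1H4C (16.7 to 35.3), HIST1H4A (10.2 to 33.2), HIST1H4H (9.81 to 28.1), HIST1H4B (1.60 to 11.8) and HIST4H4 (0.676 to 2.53), and HIST1H1E ranged from 10.04 to 47.8. Histone genes have near-identical copies, so reads may be divided among them.

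**Figure D3:**
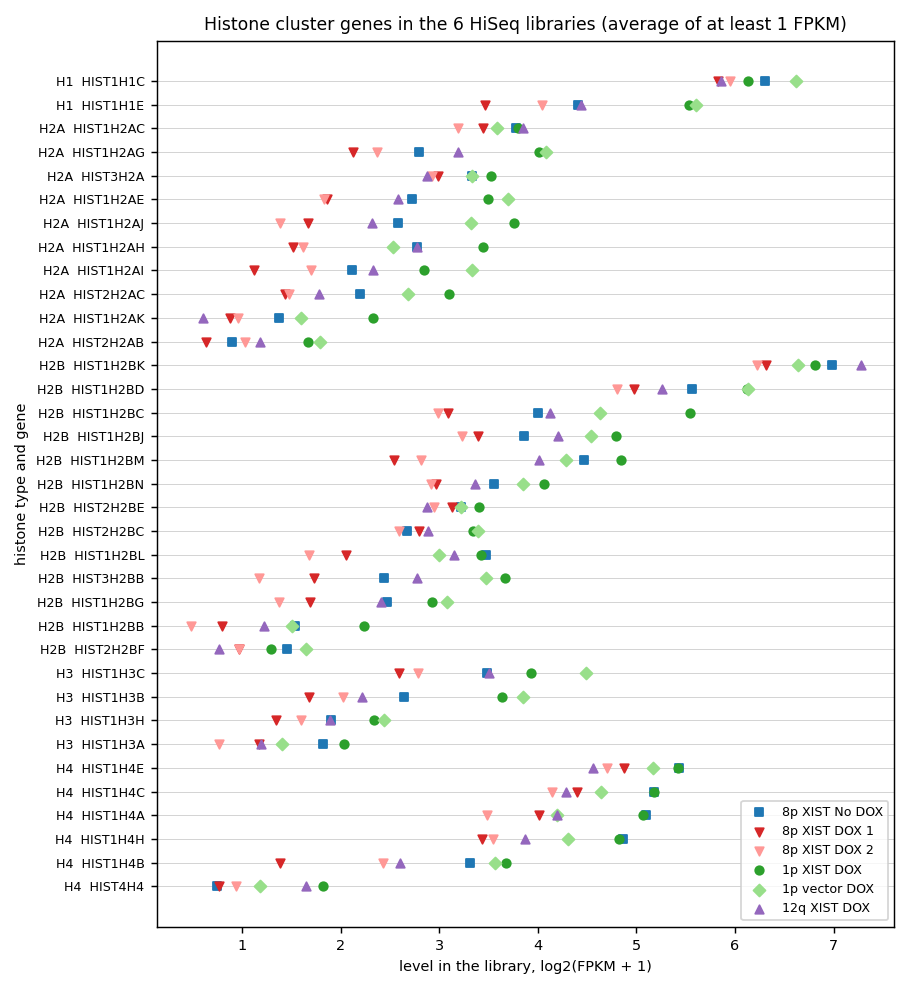
Level in each of the 6 HiSeq libraries, in log2(FPKM + 1), of the 35 histone cluster genes that averaged 1 FPKM or more, ordered by type and by average. The red and pink triangles (8p DOX) lie leftmost for most genes, both below the other 4 libraries for 25 of the 35.

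Almost every histone cluster gene that could be compared was lower after DOX in the 8p clone, where DOX induced XIST. No 8p library had DOX without the XIST cDNA, so effects of the drug and of XIST cannot be told apart. The difference is the mean log2(FPKM + 1) of the 2 DOX libraries minus that of the No DOX library, a scale that understates the change of low genes. Of the 67 members, 33 averaged at least 1 FPKM over these libraries, and the counts cover these alone. This average includes the No DOX library, and some members passed only through it, which favours lower values in the counts. HIST1H2BB (1.91 FPKM without and 0.742 and 0.394 with DOX), HIST1H2AK and HIST2H2BF were under 1 FPKM in both DOX libraries. HIST4H4, which was not lower (0.676 without and 0.701 and 0.920 with DOX), was left out by the filter. Both DOX libraries were at least 1.5-fold lower (on this scale) for 20 of the 33, against 5.1% of all 11301 genes tested, and 0 were at least 1.5-fold higher in both, against 2.89%. In all, 32 of the 33 were lower on average, against 57.5%. The median difference was -0.74 for the members and -0.06 for all genes tested.

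HIST1H2BM, an H2B gene, was at 21.1 FPKM without DOX and at 4.81 and 6.02 with DOX. It had the largest difference, -1.79 (SE 0.13, limma adjusted p = 0.00355). HIST1H2BL, a neighbouring H2B gene, was at 10.1 FPKM without and 3.17 and 2.21 with DOX (-1.61, SE 0.16, adjusted p = 0.00627). For both genes the DOX libraries lay close to each other and far below the No DOX library.

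The H4 genes as a type had the lowest median difference, -1.35 over 5 genes tested. HIST1H4H was at 28.1 FPKM without DOX and 9.81 and 10.7 with it (-1.37, SE 0.09, limma adjusted p = 0.00269). HIST1H4A was at 33.2 FPKM without and 15.1 and 10.2 with DOX (-1.35, SE 0.21, adjusted p = 0.0119). HIST1H4B was at 8.96 FPKM without and 1.60 and 4.38 with DOX, and here the DOX libraries lay far apart (-1.41, SE 0.41, adjusted p = 0.0489). HIST1H4C (-0.91) and HIST1H4E (-0.65) fell less.

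Median differences were -0.80 for the 4 H3 genes tested, -0.72 for 13 H2B, -0.70 for 9 H2A and -0.54 for 2 H1 genes. Among H2A genes HIST1H2AH (-1.21) and HIST1H2AJ (-1.05) fell most and HIST3H2A (-0.37) least among those past the threshold. HIST1H1C was lower by 0.41 on the log2 scale (difference -0.41, SE 0.09, limma adjusted p = 0.0254), and HIST1H1E had -0.66 without passing (adjusted p = 0.0798). HIST2H2BC was at 5.39 FPKM without and 5.96 and 5.05 with DOX, and it was the 1 gene tested that was not lower on average (0.02). HIST2H2BE, in the same cluster, was at 8.32 FPKM without and 7.73 and 6.70 with DOX (-0.19, adjusted p = 0.208).

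By cluster, the median difference was -0.80 for 27 HIST1 genes, -0.34 for 4 HIST2 genes and -0.68 for 2 HIST3 genes. The 21 genes under 1 FPKM in NextSeq had a median of -0.90 and the 12 at 1 FPKM or more -0.48, a description with no test. Among 8 head-to-head pairs, HIST1H2BJ and HIST1H2AG both had -0.55, and HIST1H2BG and HIST1H2AE had -0.94 and -0.88. HIST1H2AK and HIST1H2BN had -0.46 and -0.62. The other partners lay further apart. HIST1H2BM and HIST1H2AJ had -1.79 and -1.05, and HIST1H2BL and HIST1H2AI -1.61 and -0.70. HIST3H2BB and HIST3H2A had -0.99 and -0.37, HIST2H2AC and HIST2H2BE -0.74 and -0.19, and HIST1H2BC and HIST1H2AC -0.97 and -0.46.

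**Figure D4:**
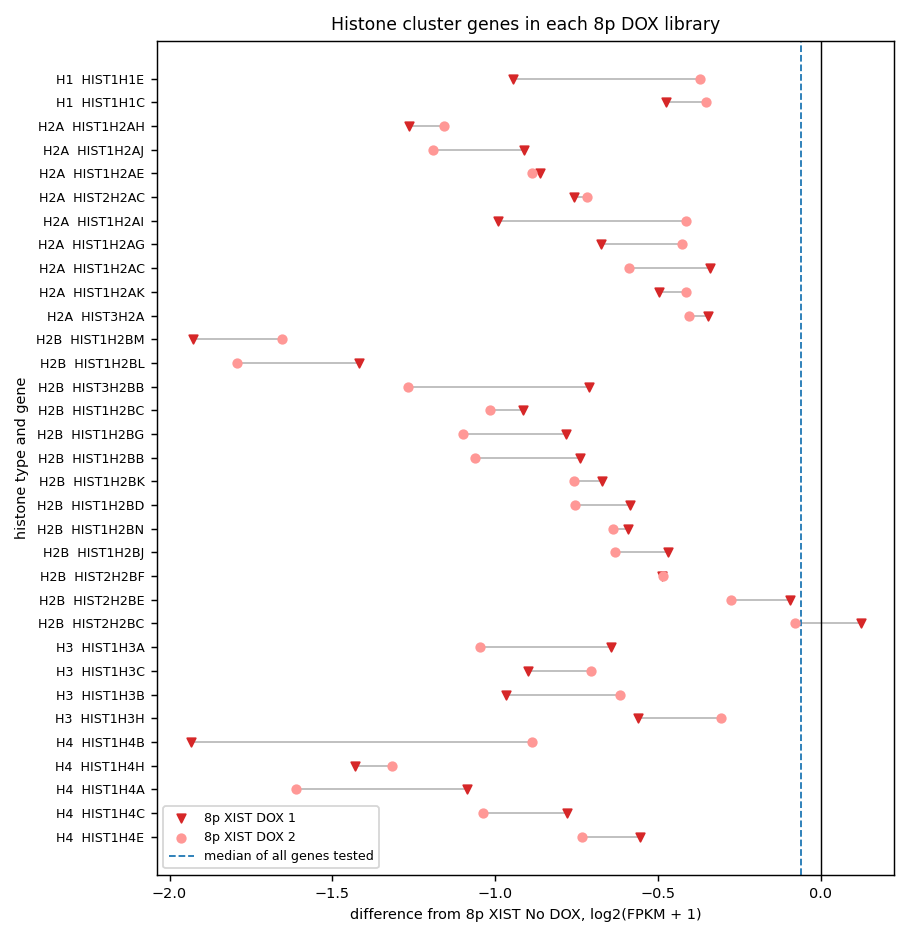
Difference from 8p XIST No DOX, in log2(FPKM + 1), of 33 histone cluster genes in each of the 2 8p DOX libraries (triangles and dots, joined by a line), grouped by type. All but 1 point (HIST2H2BC in DOX 1) lie left of 0, and the dashed line marks the median of all genes tested (-0.06).

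By limma (1 residual degree of freedom) 28 of the 33 were lower at an adjusted p under 0.05, against 22.4% of all genes tested, and 0 were higher, against 12.9%. At an unadjusted p under 0.05 limma gave 31 lower, against 30.2% of all genes tested, and 0 higher, against 18.3%. The fit rests on the spread between the 2 DOX libraries. Without a filter on low values all 28 calls were lost, and the 1 of the 67 members then called was outside the 33. In simulated data this design gave more false calls than the threshold allows when each gene kept its own spread, so these adjusted p-values are less certain than the threshold implies.

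Genes of DNA replication moved in the same direction. All 17 S phase genes of the list (MCM2, PCNA, RRM2 and others) were called lower, against 22.4% of all genes tested. Of the 17, 14 were at least 1.5-fold lower in both DOX libraries, against 5.1%, and the median was -0.93. The 17 summed to 1111 FPKM without DOX and 609 and 576 with DOX. Of 21 genes that make or degrade histone mRNA, 8 were called lower and 0 higher, against 22.4% and 12.9% of all genes tested. The median of the 21 was -0.25. SLBP, which binds the stem-loop, was at 43.0 FPKM without and 23.2 and 21.8 with DOX (-0.91), and CCNE2, a cyclin of S phase entry, at 6.97 and 1.23 and 1.55 (-1.74), whereas NPAT, a coactivator of histone genes, was at 6.27 and 6.10 and 5.71 (-0.07, adjusted p = 0.518). Of 10 replacement and variant histone genes tested 7 were called lower, against 22.4% of all genes tested, with a median of -0.59. The 7 include H3F3A, whose listed values were near 0 in NextSeq and also in 1p XIST DOX in HiSeq (7.4e-05 FPKM). H2AFX was at 112 FPKM without and 39.2 and 39.7 with DOX (-1.48). The share of these movements in the histone values was not tested. In such bulk libraries fewer cells in S phase and less histone mRNA per cell cannot be told apart. RNAs without a poly(A) tail had a median of -0.04, with 0 of 12 tested called lower by limma (0 also at an unadjusted p under 0.05) and 1 called higher (SCARNA2, 0.39, adjusted p = 0.0209).

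The 8p libraries were also set against the other HiSeq clones, 3 against 3, a comparison that shares the 8p libraries with the one above. All 35 members tested were lower on average in 8p, against 24.8% of 11357 genes, with a median of -0.72 while the median of all genes was 0.22. With libraries rescaled to a level median gene the members' median was -0.85. The 8p libraries lay wholly below the other 3 for 10 members, against 5.38% of all genes, and 2 passed limma's threshold, against 1.07%, with 0 passing as higher, against 4.1%. The filter averaged the libraries of both sides. HIST4H4 (0.766 FPKM on average in 8p) and HIST2H2AB (0.820) passed it only through the other libraries. Both are among the 10, which favours lower values in these counts. At an unadjusted p under 0.05 limma gave 18 lower, against 4.5% of all genes tested, and 0 higher, against 24.5%.

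Those that passed were the head-to-head pair HIST1H2AG and HIST1H2BJ. HIST1H2AG (27208796 to 27209293) was at 5.95 FPKM in 8p No DOX, 3.35 and 4.17 in 8p DOX, 15.2 in 1p XIST DOX, 16.0 in 1p vector DOX and 8.13 in 12q DOX (-1.33, SE 0.28, limma adjusted p = 0.0456). HIST1H2BJ (27208074 to 27208554) was at 13.5, 9.50 and 8.39 FPKM in 8p, and at 26.7, 22.3 and 17.4 in the others (-1.02, SE 0.22, adjusted p = 0.0481). The groups did not overlap for either gene, but both calls stood just inside the threshold. The number called was 0 without either 8p DOX library or without 1p XIST DOX, and 13 without 12q DOX, the pair included. Without 1p vector DOX both calls were lost and HIST4H4, which was under 1 FPKM in each 8p library, was called (adjusted p = 0.0493). Without 8p No DOX, which leaves DOX libraries alone, both were also lost (adjusted p = 0.0709 for HIST1H2AG and 0.0592 for HIST1H2BJ), and HIST1H2BL (-1.32, adjusted p = 0.0451) and HIST1H2BM (-1.71, adjusted p = 0.0493) were called.

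HIST3H2BB, an H2B gene, had the lowest difference without passing, at 4.44, 2.32 and 1.26 FPKM in 8p and 11.7, 10.1 and 5.82 in the others (-1.52, adjusted p = 0.0558). H4 genes differed least by type (median -0.34 over 6), with HIST1H4E at -0.05 and HIST1H4C at -0.13. The 8p No DOX library had H4 levels near those of 1p XIST DOX, for example 35.3 and 35.3 FPKM of HIST1H4C, while the 8p DOX libraries had 20.1 and 16.7. Both 8p DOX libraries were below each of the 4 other HiSeq libraries for 25 of 35 members, against 7.97% of all genes.

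S phase genes did not follow the same order across libraries when summed. They summed to 620 FPKM in 1p vector DOX, near the 609 and 576 of the 8p DOX libraries, while the histone cluster genes summed to 671 in 1p vector DOX and to 345 and 336 in 8p DOX. In the comparison of 8p with the others 0 of 17 S phase genes passed limma's threshold (3 were lower at an unadjusted p under 0.05). Of the 17, 14 were lower on average in 8p, against 24.8% of all genes, and 2 lay wholly below the others, against 5.38%. The median of the 17 was -0.24, while that of all genes was 0.22, so most moved in the direction of the histone genes. Of the genes that make or degrade histone mRNA 0 of 21 passed (2 were higher unadjusted, median 0.13), and of the replacement and variant histone genes 0 of 10 (2 lower and 1 higher unadjusted, median -0.07).

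The 1p clone with XIST and the 1p clone with the empty vector, both with DOX, were compared as 1 library each, with no test, a comparison added after the data were seen that shares both libraries with the one of 8p against the others. Of 37 members at 1 FPKM or more, 0 were at least 1.5-fold lower with XIST, against 7.89% of all genes tested, and 7 were higher, against 13.4%. The higher ones were HIST1H2AH (9.88 against 4.77 FPKM), HIST1H2BC (45.6 against 23.8), HIST1H4A (32.5 against 17.4), HIST1H2AK, HIST1H2BB, HIST1H3A and HIST4H4. The members' median was 0.19 and that of all genes 0.09. S phase genes had a median of 0.52.

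In the NextSeq table each clone had 1 library per condition, so the differences have no replicate check. After DOX in the 1p clone, the 12 members at 1 FPKM or more had a median difference of 0.04. Of these 3 were at least 1.5-fold lower, against 0.675% of all genes, and 0 were higher, against 0.423%. HIST3H2A went from 3.77 to 1.14 FPKM (-1.16), HIST1H2AI from 1.89 to 0.896 (-0.61) and HIST1H3C from 1.57 to 0.695 (-0.60). HIST1H2AI and HIST1H3C were under 1 FPKM with DOX and so passed the filter only through the No DOX library, which favours lower values in this count. These are low levels, and the members above 5 FPKM differed by between 0.01 and 0.29.

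After DOX in the 12q clone, the median over 12 members was -0.06. Epithelial markers differed in the same pair, with EPCAM, CDH1 and KRT19 listed at 0 without DOX and at 2.38, 1.38 and 0.964 FPKM with DOX, while CLDN4 was at 2.96 and 2.06. Their summed level was 2.96 and 6.78 FPKM, against 1.06 and 1.07 in the 1p pair, and their part in the histone values was not tested. HIST1H3H went from 3.22 to 0.926 FPKM (-1.13) and HIST3H2A from 1.70 to 0.319 (-1.03), the 2 that were at least 1.5-fold lower, against 1.95% of all genes. Both were under 1 FPKM with DOX and passed the filter only through the No DOX library, so this count is no evidence of a fall. HIST1H2BD went from 5.48 to 8.94 (0.62), the 1 that was higher, against 1.13%. HIST3H2A was lower with DOX in both NextSeq pairs, as it was in 8p, though at levels under 4 FPKM in NextSeq. HIST1H2BC, also under 4 FPKM in NextSeq, was lower in each clone too (-0.97 in 8p, -0.49 in 1p and -0.39 in 12q). S phase genes had medians of -0.00 in 1p and -0.05 in 12q.

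**Figure D5:**
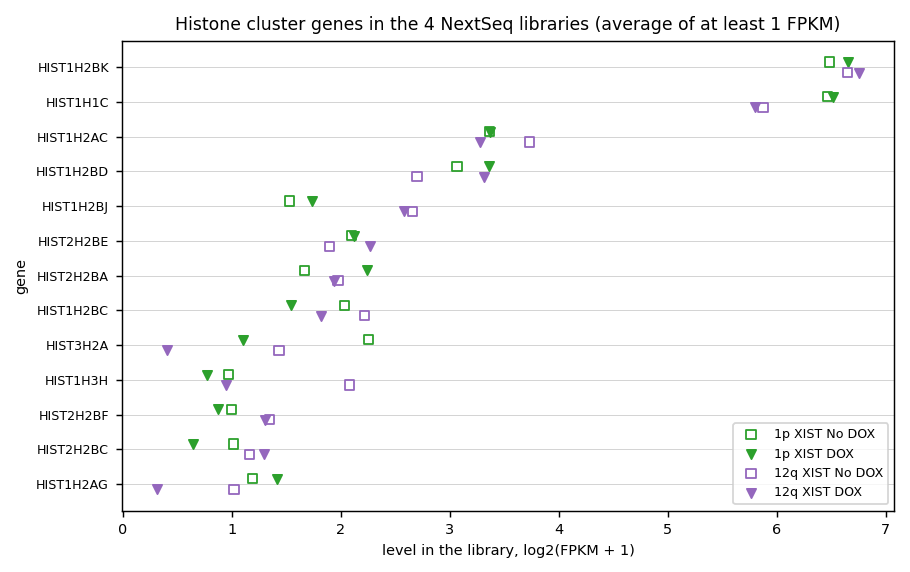
Level in each of the 4 NextSeq libraries, in log2(FPKM + 1), of the 13 histone cluster genes that averaged 1 FPKM or more (open squares No DOX, filled triangles DOX, green 1p, purple 12q). DOX and No DOX lie close together for HIST1H2BK and HIST1H1C, and HIST3H2A and HIST1H2BC are among those lower with DOX in both clones.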

How the data were processed

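TopHat alignments to hg18 and Cufflinks were used by the authors to make the deposited FPKM values, in a HiSeq table (6 libraries, 22892 unique symbols, strand-specific libraries) and a NextSeq table (4 libraries, 25606, stranded mRNA kit). Tool versions are not given in the sources used here. Read depth is unknown, so no counting interval is given. Symbols listed more than once, symbols turned into dates and genes without a value were left out, and 0 per-sample columns were unmapped. ChIP-seq libraries were not used here.

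Genes averaging 1 FPKM or more over the libraries compared were tested with limma 3.58.1 (R 4.3.3; lmFit, eBayes with trend) on log2(FPKM + 1), a pseudocount of 1, with Benjamini-Hochberg adjustment over all genes tested (threshold 0.05), in the 2 replicated comparisons. Comparisons of 1 library per condition had no test and used a 1.5-fold limit. Python 3.11.15 and pandas 2.3.3 gave the remaining values.

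Members and gene lists were chosen with earlier results of these data known. Members of at least 5 FPKM on average in both tables were named with all values, those of at least 1 in either table with ranges, and some of those past a threshold with values or differences. The fits were tested on simulated data drawn in 2 ways. With the spread drawn from limma's fitted prior, the share of false calls was slightly above the threshold in both comparisons. With each gene at its own moderated variance it was slightly above the threshold for 8p against the other clones and well above it for 8p DOX against No DOX. Alternatives were other pseudocounts, filters and scalings, duplicated symbols summed, near-identical copies left out, limma without the trend, and leaving out libraries.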

Additional observations from a re-analysis of the deposited data

Results flagged for a closer look

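The sign of the DOX difference changed between clones for some results, with the 8p values from HiSeq and the others from NextSeq. Whether the clones differ was not tested, and clone and table cannot be told apart. The members' median was -0.74 in 8p, 0.04 in 1p and -0.06 in 12q. HIST1H1C had -0.41, 0.06 and -0.08 in the same order, HIST1H2AC -0.46, 0.01 and -0.46, and HIST1H2BJ -0.55, 0.21 and -0.08. HIST1H2BD had -0.67, 0.29 and 0.62, HIST1H2BK -0.72, 0.17 and 0.11, and HIST2H2BE -0.19, 0.02 and 0.37. HIST1H2AG had -0.55 in 8p and 0.23 in 1p, and HIST2H2BA 0.58 in 1p and -0.04 in 12q.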

How the results depend on the processing

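With a pseudocount of 0.1 the members' median was -1.04 for the 8p libraries against the other clones and -0.94 for 8p DOX, and 1 member was at least 1.5-fold higher after DOX in 1p. With an average of 5 FPKM as the filter, 16 members were called and 17 were lower in 8p DOX (median -0.67, 18 tested). In 1p DOX 0 were then past the fold as lower and 0 were lower at all (4 tested), in 12q DOX 0 and 3 (5 tested), and 3 were higher with XIST than with the vector. With no filter, over 67 members, the 8p libraries against the others had 0 called and a median of -0.13. For 8p DOX the median was then -0.38 with 1 called, which was not among the 28 called with the filter. In 1p DOX 5 were past the fold as lower and 14 lower at all, and 12q DOX had 5 lower and 4 higher past the fold and 27 lower at all. The cause was not tested. With the median gene level between libraries, the 8p DOX median was -0.69 with 23 called, and 1 member was lower with XIST than with the vector.

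Leaving out 1 library each time, the number called in the 8p libraries against the others ranged from 0 to 13, and the 8p DOX median from -0.74 to -0.73. Some members that were not called changed sign in the comparison of 8p with the others, HIST1H4E among them. No paired analysis was possible because no comparison has 2 replicate numbers in common between its arms.

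The 8p DOX comparison rests on 1 No DOX library, the NextSeq comparisons on 1 library per condition, and the depth behind each FPKM is unknown, which limits the members under 5 FPKM most.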
